A study of Mus musculus with 9 samples.

Results

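This comparison set the miRNAs of hepatic exosomes from 3 floxed mice fed a high-fat, high-fructose, high-cholesterol (HFFC) diet against those from 3 floxed mice fed chow. These are 6 of the 9 libraries in the series, chosen by genotype and diet in the labels and by no measured value. The mice were Hsp90beta flox, that is, both copies of Hsp90ab1 carried loxP sites and no Cre was present. The flox HFFC mice received the HFFC diet, which induces steatohepatitis, and the flox chow mice the chow diet. The labels give neither the age of the mice nor the length of feeding. Per the study's methods, floxed mice entered the diets as young adults and stayed on them for several months. The other 3 libraries came from HFFC-fed mice in which Alb-Cre, active in hepatocytes, removes Hsp90ab1 (KO HFFC), and they entered the fit only to share its estimate of spread. No knockout was fed chow. Exosomes are small vesicles that cells release, and here they were spun down from the culture medium of liver tissue that had been treated with collagenase, so every cell type of the liver could contribute. A bulk library cannot tell fewer vesicles from a cell type apart from less of a miRNA per vesicle.

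miRNAs are short RNAs that bind messenger RNAs mainly through bases 2 to 8, the seed, and lower their output. miRNAs with the same seed form a family with shared targets, and miRNAs made from neighbouring hairpins are often transcribed together. Some are markers of origin, among them miR-122 for hepatocytes, miR-451a and miR-144 for red blood cells, miR-142a and miR-223 for leukocytes, miR-126a for endothelium, miR-143, miR-145a and miR-199a for stellate and other mesenchymal cells, and the miR-200 family for epithelia such as bile ducts. In steatohepatitis, hepatocytes fill with fat, leukocytes enter the liver and stellate cells lay down collagen.

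The sequences below are those the comparison turns on, as RefSeq gives them (GRCm38.p6), written 5′ to 3′ with the seed in capitals. RefSeq held a mature sequence for 184 of the 218 miRBase-named miRNAs that could be tested. The first 6 are among the miRNAs with an unadjusted p under 0.05 whose libraries separated by diet, and miR-16-5p, which also did, stands with its family below them.
miR-802-5p: uCAGUAACaaagauucauccuu
miR-802-3p: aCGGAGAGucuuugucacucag
miR-34a-5p: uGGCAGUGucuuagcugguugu
miR-342-3p: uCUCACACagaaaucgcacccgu
miR-155-5p: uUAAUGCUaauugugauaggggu
miR-127-3p: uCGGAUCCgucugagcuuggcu

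The next 6 share the seed AGCAGCA and show how alike the members of the miR-15/16/195 family are outside the seed as well.
miR-16-5p: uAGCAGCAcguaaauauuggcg
miR-195a-5p: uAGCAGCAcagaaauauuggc
miR-15a-5p: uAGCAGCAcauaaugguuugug
miR-15b-5p: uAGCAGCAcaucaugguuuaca
miR-497a-5p: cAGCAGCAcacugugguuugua
miR-322-5p: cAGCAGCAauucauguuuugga

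The last 4 form 2 pairs with the same mature sequence from different hairpins, so that reads cannot be told apart within a pair.
miR-199a-3p: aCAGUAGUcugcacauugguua
miR-199b-3p: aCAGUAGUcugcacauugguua
let-7a-1-3p: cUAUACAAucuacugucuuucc
let-7c-2-3p: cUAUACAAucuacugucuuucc

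Depth ran from 218256 miRNA counts in chow replicate 3 and 293708 in HFFC replicate 1 to 681286 in chow replicate 2. The authors' own scaling implies 25698400, 24857300 and 26113500 tags of any kind in these libraries. The miRNA share of tags was 0.85%, 1.18% and 2.61%, so depth here means miRNA counts and not the amount of sequencing. Values are given as CPM, counts per 1e+06 after TMM scaling, which sets the bulk of miRNAs level between libraries. In every flox library the hepatocyte miRNA miR-122-5p was present at 143534 CPM or more, which fits the labelled tissue. Libraries of the same diet were about as far apart as libraries of different diets: the root mean square log2 distance over tested miRNAs was 1.06 to 1.49 within chow, 1.21 to 1.24 within HFFC and 0.90 to 1.70 between them. Chow replicate 3 had the highest value of the 6 for 51 of the 248 tested miRNAs and the lowest for 57, and HFFC replicate 2 the highest for 63 and the lowest for 44.

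Few miRNAs had libraries apart by diet, and none differed beyond the spread between mice once all tested miRNAs were considered. Of the 722 entries, 248 had enough counts to be tested, 218 of them miRBase-named and 30 predicted by the authors. edgeR's quasi-likelihood test called 0 of 248 (0%) at a Benjamini-Hochberg adjusted p of 0.05, with a lowest adjusted p of 0.917. At an unadjusted p under 0.05 there were 11, of which 5 were higher on HFFC (2.02% of the tested miRNAs) and 6 were lower (2.42%). DESeq2 gave 0 calls and 17 miRNAs at an unadjusted p under 0.05, and limma-voom gave 0 and 11. In 12 miRNAs (4.84%) every HFFC library lay above every chow library, and in 9 (3.63%) every HFFC library lay below. With 3 libraries a group, permuting the labels can give no p under 0.1, so groups that lie apart are no call by themselves. Both kinds of count are no larger than a comparison without any difference would give on average. The 11 are under 0.05 of the 248, and the miRNAs with groups apart, both sides together, are under 0.1. Log2 fold changes, HFFC over chow, were positive in 120 and negative in 128, with a median of −0.02.

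The 5 miRNAs on the higher side were the paired arms of miR-802, miR-34a-5p, miR-342-3p and miR-155-5p. In all of them the 3 HFFC libraries lay above the 3 chow libraries. Their known links to obesity, cell stress or leukocytes in the liver are background and no result of these data. miR-802 is a hepatic miRNA known for high levels in obese mice. Its 5p arm was at 584, 613 and 481 CPM in chow replicates 1 to 3 and at 2002, 1487 and 911 CPM in the HFFC replicates. The HFFC libraries were spread widely, and all of them lay above the narrow chow range. The log2 fold change was 1.39 ± 0.48 (SE; 95% interval 0.35 to 2.43; edgeR unadjusted p = 0.0132). The 3p arm, cut from the same hairpin, was at 26.2, 45.9 and 22.6 CPM on chow and at 98.8, 119.9 and 77.7 CPM on HFFC. Its log2 fold change was 1.59 ± 0.50 (0.50 to 2.68; edgeR unadjusted p = 0.00789), the lowest p of the table, although it rested on 4 to 67 counts a library. Both arms come from chr16:93369720-93369816 on the plus strand, where GENCODE M21 has no other gene.

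miR-34a is induced by p53 and targets Sirt1, and it is known for high levels in fatty liver. It was at 13434, 7908 and 4078 CPM on chow and at 17082, 35055 and 13582 CPM on HFFC. The groups did not overlap, but HFFC replicate 3 exceeded chow replicate 1 by little, and most of the difference in means (8473 ± 4704 against 21906 ± 11521 CPM, SD, n = 3 each) came from HFFC replicate 2. The log2 fold change was 1.37 ± 0.52 (0.23 to 2.51; edgeR unadjusted p = 0.0232). Leaving out each flox library in turn moved it between 0.87 and 1.81. The hairpin lies at chr4:150068454-150068555 on the plus strand, within an exon of the unclassified transcript Gm37795.

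miR-342-3p, a miRNA of lymphoid and myeloid cells whose hairpin is intronic in Evl (chr12:108658620-108658718, plus strand), was at 65.6, 78.4 and 73.5 CPM on chow. On HFFC it was at 281, 136 and 104 CPM, so every HFFC library exceeded the narrow chow range. The log2 fold change was 1.25 ± 0.49 (0.18 to 2.32; edgeR unadjusted p = 0.0259), and it was 0.74 to 1.43 when single libraries were left out. miR-155-5p, which activated macrophages and lymphocytes make, was at 114, 112 and 67.9 CPM on chow and at 209, 252 and 160.3 CPM on HFFC. Its log2 fold change was 1.06 ± 0.45 (0.08 to 2.04; edgeR unadjusted p = 0.0357). Its hairpin lies in an exon of Mir155hg at chr16:84714140-84714204, plus strand.

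**Figure D1:**
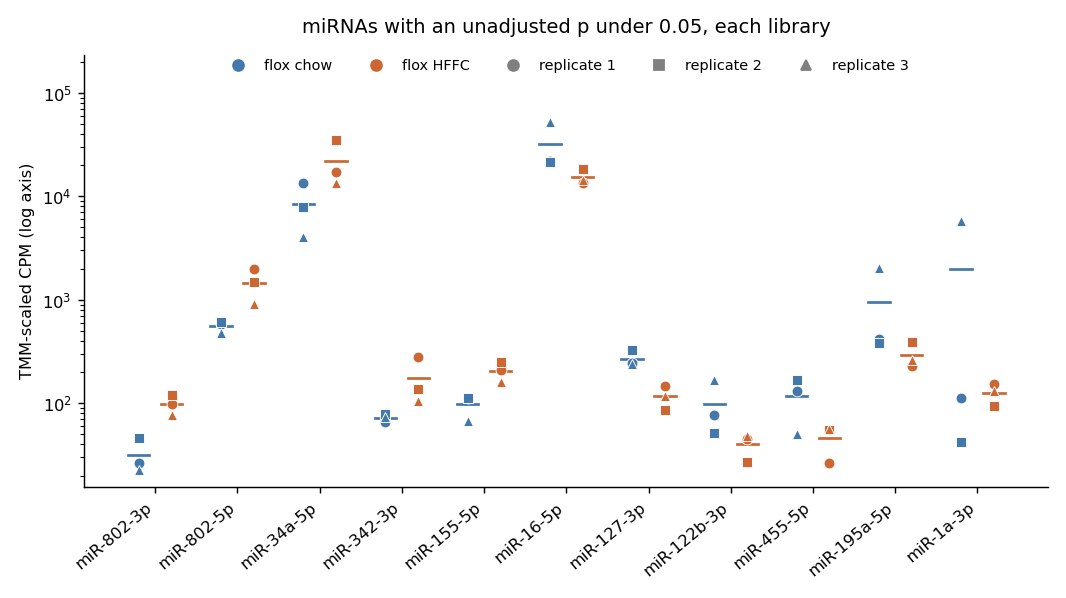
TMM-scaled CPM (log axis) of the 11 miRNAs with an unadjusted p under 0.05 in each flox library, with 1 symbol a library and bars for the mean of 3. The groups are apart in the 5 miRNAs on the left and in miR-16-5p, miR-127-3p and miR-122b-3p, while a single chow library (replicate 3, triangle) carries the chow means of miR-195a-5p and miR-1a-3p.

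The 6 miRNAs on the lower side were miR-16-5p, miR-195a-5p, miR-127-3p, miR-122b-3p, miR-455-5p and miR-1a-3p. miR-127-3p kept its value best when libraries were left out. It belongs to the imprinted Dlk1-Dio3 locus and lies opposite an exon of Rtl1, whose transcript it cuts (hairpin at chr12:109592846-109592915, plus strand). It was at 245, 326 and 238 CPM on chow and at 148, 85.9 and 117 CPM on HFFC, with no overlap. The log2 fold change was −1.21 ± 0.45 (−2.19 to −0.24; edgeR unadjusted p = 0.0191), and −1.38 to −1.04 with single libraries left out.

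miR-16-5p, which restrains the cell cycle through cyclins and Bcl2, was at 22062, 21440.3 and 52629 CPM on chow. On HFFC it was at 13542, 18333 and 14306 CPM, below every chow library. The log2 fold change of −1.06 ± 0.36 (−1.85 to −0.26; edgeR unadjusted p = 0.0136) was −0.49 without chow replicate 3, which held the highest value. Its family member miR-195a-5p was at 415, 379.7 and 2036 CPM on chow and at 228, 394 and 262 CPM on HFFC. These groups overlapped, and the log2 fold change of −1.67 ± 0.64 was −0.43 without chow replicate 3. The hepatocyte miRNA miR-194-5p behaved in the same way, with 13065, 13175 and 40604 CPM on chow, 8072, 13785 and 11481 CPM on HFFC, and a log2 fold change of −1.0 ± 0.46 that was −0.23 without that library.

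miR-122b-3p, transcribed from the strand opposite miR-122, was at 76.5, 51.3 and 169.7 CPM on chow and at 45.6, 26.8 and 48.6 CPM on HFFC. Its log2 fold change of −1.27 ± 0.58 (edgeR unadjusted p = 0.0483) was −0.64 without chow replicate 3. miR-455-5p, hosted by the cartilage collagen gene Col27a1, was at 131, 168 and 50.9 CPM on chow and at 26.6, 55.5 and 55.9 CPM on HFFC, which overlap. Here the log2 fold change of −1.34 ± 0.60 moved to −1.65 without the same chow library, which was its lowest on chow.

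Muscle miRNAs were high in 1 library. miR-1a-3p was at 111, 41.9 and 5820.0 CPM on chow and at 152, 93.1 and 131 CPM on HFFC, and miR-206-3p at 8.74, 6.76 and 916 CPM against 60.8, 19.7 and 9.71 CPM. Chow replicate 3 also held 96 of the 103 flox counts of miR-133a-3p, another muscle miRNA. The log2 fold changes were −3.99 ± 1.57 for miR-1a-3p and −3.38 ± 1.65 for miR-206-3p with all libraries, and turned to 0.72 and 1.90 without chow replicate 3. The same library was the highest in miR-122-5p, miR-16-5p, miR-194-5p and miR-195a-5p and had the fewest counts of all, and the part of depth or of muscle RNA in those values was not tested.

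**Figure D2:**
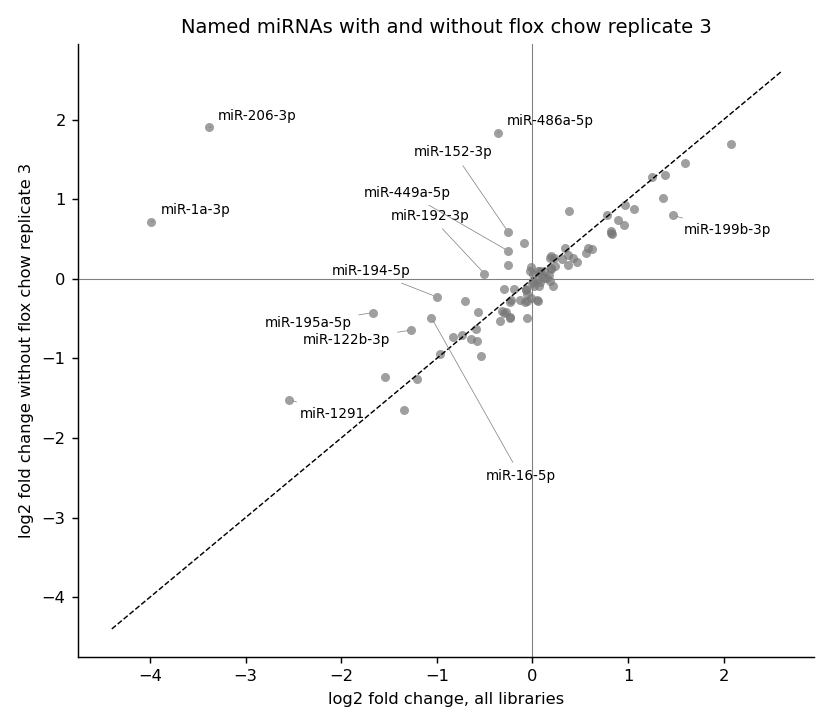
Log2 fold change of the named miRNAs with all libraries (x axis) and without flox chow replicate 3 (y axis), with a dashed line where both are equal. Most points lie near the line, and miR-1a-3p and miR-206-3p move from −3.99 and −3.38 to 0.72 and 1.90.

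Cell-origin markers differed little by diet at the level of whole lists. Of the 10 tested hepatocyte miRNAs 4 were positive and 6 negative, with a median of −0.07 beside −0.02 over all 248. Both arms of miR-802, described above, are in this list and were its only tested members whose groups did not overlap. Summed over the list, chow libraries held 233687 to 522531 CPM and HFFC libraries 273412 to 421128 CPM, and of its 13 entries only miR-194-1-3p was at 0 in all 6. The dominant member miR-122-5p was at 216778, 143534 and 417023 CPM on chow and at 325640.0, 180272 and 224398 CPM on HFFC, a log2 fold change of −0.09 ± 0.35 (−0.87 to 0.69). Its 3p arm miR-122-3p was at 3814, 7452 and 3942 CPM against 4209, 2869 and 2639.7 CPM, with overlapping groups (−0.65 ± 0.35, and −0.29 without chow replicate 2). The narrowest interval was that of miR-192-5p (0.19 ± 0.20; −0.25 to 0.63), with 44943 to 56452 CPM on chow and 48888 to 67018 CPM on HFFC. miR-192 and miR-194-2 lie next to each other on chromosome 19, and miR-194-5p can also come from a copy on chromosome 1. Their log2 fold changes had opposite signs (0.19 and −1.0), or 0.12 and −0.23 without chow replicate 3.

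Endothelial miR-126a-3p was level, with 54708, 64583 and 43647 CPM on chow against 46802, 61219 and 56897 CPM on HFFC and a log2 fold change of 0.02 ± 0.22 (−0.45 to 0.49). Red blood cell miRNAs had 1 of 6 members positive and a median of −0.32, which was −0.08 without chow replicate 3. Their main member miR-451a was at 5976 to 10945 CPM on chow and 6508 to 9531 CPM on HFFC (0.07 ± 0.31). The list's summed level was 6173 to 11228 CPM on chow and 6758 to 9785 CPM on HFFC, and no entry was at 0 in all 6 libraries.

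Leukocyte miRNAs were split. Of 9 tested members 5 were positive and 4 negative, with a median of 0.17 and a summed level of 14084 to 19480.3 CPM on chow and 13876 to 24055 CPM on HFFC. miR-342-3p and miR-155-5p, described above, were the only members whose groups did not overlap. Myeloid miR-223-3p was at 54.6, 91.9 and 39.6 CPM on chow and at 76.0, 202 and 43.7 CPM on HFFC (0.77 ± 0.75). The general leukocyte marker miR-142a-3p was at 83.1, 54.1 and 22.6 CPM on chow and at 41.8, 34.0 and 63.1 CPM on HFFC (−0.24 ± 0.62). Its 5p arm was at −0.28, and miR-511-3p had the lowest log2 fold change of the list, −0.47. Of the abundant members, miR-146a-5p, a brake on NF-κB signalling, had a log2 fold change of 0.17 ± 0.30 and B cell and T cell miR-150-5p one of −0.26 ± 0.44. All 11 entries of this list were detected in the flox libraries.

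Stellate and mesenchymal miRNAs had 7 of 8 members positive and a median of 0.40, and biliary and other epithelial miRNAs 8 of 9 and also 0.40. Neither list had a member whose groups were apart. Summed levels were 8320.0 to 13759.8 CPM on chow and 11194 to 15763 CPM on HFFC for the former, and 1448 to 2012 CPM and 1122 to 3161 CPM for the latter. miR-429-3p, the most abundant epithelial member, was at 660.1, 720.2 and 503 CPM on chow and at 1026, 2116 and 367 CPM on HFFC, so that HFFC replicate 3 lay below all chow libraries (0.90 ± 0.56, and 0.13 without HFFC replicate 2). The most abundant mesenchymal member, miR-143-3p of smooth muscle and fibroblasts, had a log2 fold change of 0.15 ± 0.28. For the other lists, neural miRNAs had 1 tested member (miR-137-3p, −0.73 ± 0.62) with miR-137-5p at 0 in all 6 libraries, and no pancreatic acinar miRNA was among the entries analysed here.

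**Figure D3:**
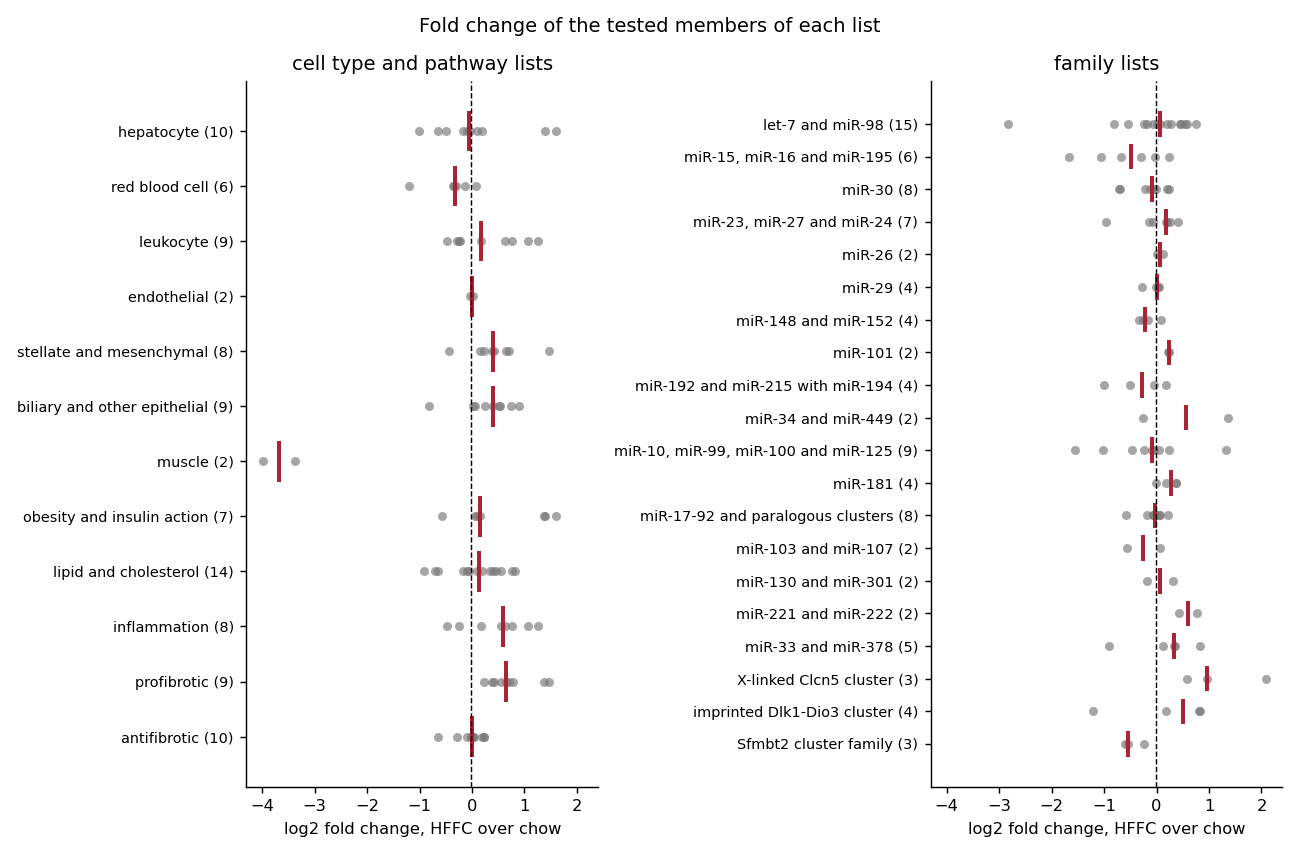
Log2 fold change of every tested member (grey points) of lists with at least 2 tested members, with the list median in red, the number of tested members in brackets and the median over all 248 dashed. Most medians lie near the dashed line, the profibrotic list has all members to the right of 0, and the muscle list at the far left rests on chow replicate 3.

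miR-199a-3p and miR-199b-3p have to be read together. Their mature sequence is the same, and each library put nearly all of its reads under 1 of the names. miR-199b-3p took 785, 5 and 0 counts on chow and 376, 1868 and 5 on HFFC, whereas miR-199a-3p took 14, 555 and 123 on chow and 12, 56 and 730 on HFFC. Libraries of both diets fell on either side, so the log2 fold changes of the separate entries (0.38 ± 1.52 and 1.47 ± 2.65) carry wide errors. Summed to 1 entry before the fit, a choice made after seeing the data, they were at 1790.0, 703 and 802 CPM on chow and at 1594, 3190.4 and 1803 CPM on HFFC. The log2 fold change was then 1.00 ± 0.51 (edgeR unadjusted p = 0.0775, adjusted p = 0.956), and the groups overlapped through chow replicate 1.

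The let-7 family holds the same case. let-7c-2-3p had the lowest log2 fold change of its 15 tested members, −2.83 ± 2.08, from 19, 0 and 0 counts on chow and 2, 0 and 0 on HFFC. Its twin let-7a-1-3p took 0, 67 and 2 counts on chow and 0, 18 and 11 on HFFC, with reads in the libraries where let-7c-2-3p had none. Together they had a log2 fold change of −1.12 ± 0.80. The order of the family by fold change therefore says nothing of let-7c-2 itself.

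**Figure D4:**
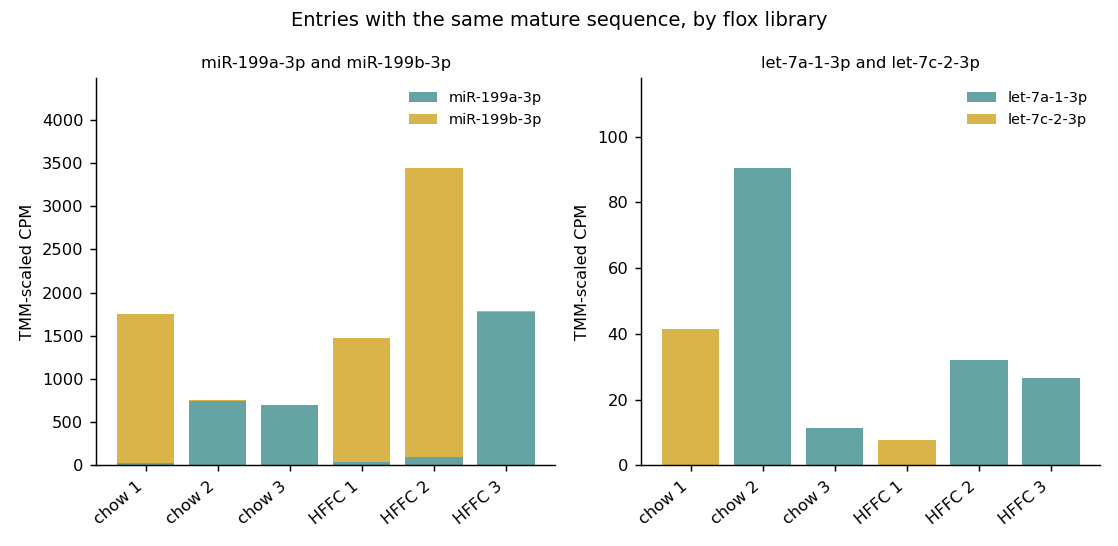
TMM-scaled CPM of entries with the same mature sequence, stacked, in each flox library. In each library nearly all signal carries 1 of the names, and the name that takes it differs between libraries of the same diet.

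Among seed families, let-7 and miR-98 with the seed GAGGUAG were the most abundant and showed little difference. Of 10 tested members 7 were positive, with a median of 0.13 and a range from −0.23 to 0.54. Their sum was 332737, 243797 and 296222 CPM on chow and 279438, 361424 and 270678 CPM on HFFC. These miRNAs hold back growth genes such as Ras and Hmga2, and the leading member let-7f-5p had a log2 fold change of 0.01 ± 0.23 (−0.49 to 0.50). Next came let-7g-5p (0.19 ± 0.24) and let-7a-5p (−0.23 ± 0.21). let-7i-5p was at 25430.2, 17997 and 18682 CPM on chow and at 24987, 39699.9 and 21003 CPM on HFFC (0.46 ± 0.29), where only HFFC replicate 2 stood clear of the chow range.

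The miR-15/16/195 family had 1 of 6 members positive and a median of −0.49, or −0.43 without chow replicate 3. Its sum by seed was 24881.6, 24946.8 and 56441 CPM on chow and 15198, 21802 and 16523 CPM on HFFC, which do not overlap. miR-16-5p made up most of it. The other members lay nearer 0: miR-15a-5p had −0.29 ± 0.38, miR-15b-5p −0.03 ± 0.56, miR-497a-5p −0.68 ± 0.70 and the X-linked miR-322-5p 0.24 ± 0.59. miR-497a and miR-195a share a locus on chromosome 11, and miR-15b and miR-16-2 lie in an intron of Smc4 on chromosome 3, while miR-15a and miR-16-1 lie in Dleu2 on chromosome 14. Which locus gave the miR-16-5p reads cannot be read from the mature sequence.

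Several other families, some known to oppose fibrosis or to keep hepatocyte identity, had medians between −0.21 and 0.23. miR-29, which targets collagen messages, had a median of 0.00 over 4 tested members, and its leading member miR-29b-3p was at −0.28 ± 0.40. The miR-30 family had 2 of 8 positive (median −0.09), miR-148 and miR-152 1 of 4 (−0.21), and miR-101 2 of 2 (0.23). miR-26a-5p, at 0.01 ± 0.24, and miR-26b-5p, at 0.12 ± 0.24, were level. miR-23, miR-27 and miR-24 had 4 of 7 positive with a median of 0.19. Within that list miR-27a-3p, a repressor of lipid genes such as Ppara and Pparg, was at 2997, 3704 and 2664 CPM on chow and at 3749, 4959.6 and 3708 CPM on HFFC, apart but barely (0.41 ± 0.29).

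The profibrotic and inflammation lists were mostly positive, whereas the antifibrotic list was even, with 5 of 10 tested members positive and a median of 0.01. All 9 tested entries of the profibrotic list had positive log2 fold changes, between 0.22 and 1.47 with a median of 0.64, where 120 of all 248 were positive. With the miR-199 twins as 1 entry the list has 8, and several of these share a locus. The list was chosen with earlier results of these data known, so its count of positive members describes the values and is no test. Leaving out single libraries moved its median between 0.50 and 0.83, and the positive sign of the median held in each of those fits. Its summed level was 45243, 30129 and 18557 CPM on chow and 45913, 69014 and 53437 CPM on HFFC, so the groups just failed to overlap. The sum is carried by miR-34a-5p and miR-21a-5p. miR-21a, which stellate cells and stressed hepatocytes make, was at 29107, 20662 and 13184 CPM on chow and at 26199, 29036 and 37446 CPM on HFFC, with overlap through chow replicate 1 (0.56 ± 0.41).

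Among the other profibrotic members, miR-221-3p had a log2 fold change of 0.43 ± 0.47, which was 0.01 without HFFC replicate 2, and miR-222-3p one of 0.78 ± 0.56. Both share the seed GCUACAU and a locus on the X chromosome, and both target the cell cycle inhibitor p27. The miR-199a-2 and miR-214 hairpins lie in Dnm3os, antisense to Dnm3, on chromosome 1, which is active in fibroblasts. The 4 tested arms of these names were positive, from 0.22 to 0.70, but both miR-199a arms can also come from a copy on chromosome 9, so their reads cannot be assigned to 1 locus. miR-199a-5p was at 159.6, 135 and 50.9 CPM on chow and at 236, 202 and 112 CPM on HFFC, with HFFC replicate 3 within the chow range (0.64 ± 0.51). Chow replicate 3 was the lowest chow library in each of miR-21a-5p, miR-34a-5p, miR-199a-5p and miR-221-3p, and without it the list's median was 0.50.

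The inflammation list had 6 of 8 members positive and a median of 0.60. Its summed level was 48388, 37123 and 27166 CPM on chow and 44553, 52955 and 51193 CPM on HFFC, which overlap. It shares miR-21a-5p with the profibrotic list and miR-155-5p, miR-342-3p, miR-223-3p, miR-146a-5p, miR-146b-5p and miR-150-5p with the leukocyte list, so these counts are not separate evidence. miR-146b-5p was at 0.63 ± 0.69 and miR-125b-5p at −0.47 ± 0.49.

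Metabolic miRNAs were described by 2 lists. In the list for obesity and insulin action 6 of 7 were positive, but the median was 0.15, with miR-103-3p, which acts on caveolin-1, at 0.06 ± 0.48 and miR-107-3p at −0.56 ± 0.55. The lipid and cholesterol list had 8 of 14 positive and a median of 0.14. miR-378a-5p, hosted by Ppargc1b, was at 122, 128 and 56.6 CPM on chow and at 167, 184 and 202 CPM on HFFC, with no overlap (0.82 ± 0.43; edgeR unadjusted p = 0.0811). Its more abundant 3p arm was at 0.34 ± 0.30 with overlap. miR-33-5p, hosted by Srebf2 and a repressor of cholesterol export, was at −0.91 ± 1.14 on 2 to 42 counts a library.

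Clusters of neighbouring hairpins were compared for whether members shared a sign. Of 29 clusters with at least 2 tested members, 9 had only positive members, 9 only negative ones and 11 members of both signs. Some miRNAs, such as miR-181a-5p and miR-92a-3p, count in more than 1 cluster, and 1 cluster rests on the arms of miR-100 alone. The 29 are therefore not separate observations. In the X-linked Clcn5 introns 3 of 3 tested members were positive with a median of 0.96. miR-532-5p was at 264, 431 and 198 CPM on chow and at 403, 544 and 396 CPM on HFFC (0.58 ± 0.42). miR-501-3p was at 26.2, 23.0 and 5.66 CPM against 45.6, 26.8 and 43.7 CPM (0.96 ± 0.91), and miR-362-3p had 8, 0 and 0 counts on chow and 6, 18 and 11 on HFFC (2.08 ± 1.35). The fitted value of miR-362-3p ran from 1.34 to 6.61 when single libraries were left out, since chow replicate 1 held all of its chow counts. Another X-linked group, with miR-322, miR-503, miR-542 and miR-450a, had 4 of 4 arms positive (median 0.59).

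The imprinted Dlk1-Dio3 locus on chromosome 12 was divided. Only 4 of its 43 entries had enough counts. miR-411-5p was at 544, 650.0 and 334 CPM on chow and at 786, 1222 and 692 CPM on HFFC (0.82 ± 0.44, no overlap), and its neighbour miR-379-5p was at 310.4, 231 and 130.1 CPM against 528, 469 and 204 CPM (0.83 ± 0.50). miR-127-3p, from the Rtl1 end of the locus, had the opposite sign (−1.21). The median over the 4 was 0.50 and turned to −0.07 without HFFC replicate 2. The miR-17-92 cluster on chromosome 14, which promotes proliferation, had 0 of 4 tested members positive. miR-19b-3p was at −0.59 ± 0.56, and the others lay between −0.06 and −0.02. miR-19b-3p and miR-92a-3p can also come from a cluster on the X chromosome, so their reads cannot be assigned to 1 locus. The 3 tested members of the rodent Sfmbt2 cluster were negative too, with a median of −0.54.

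Paired arms of 1 hairpin come from the same precursor, and 31 hairpins had both arms tested. In 19 of them both arms had the same sign, 11 positive and 8 negative. The log2 ratio of 5p to 3p did not overlap between the diets in 3 of the 31 hairpins. That share is close to the 0.1 that permuting the labels gives without any difference, so it is no sign of a shift in arm use. The ratio was higher on HFFC for miR-22 (mean −7.91 against −8.63) and lower for miR-145a (2.16 against 2.98) and miR-30e (−2.59 against −1.73). miR-22-3p, an abundant miRNA of hepatocytes and other cells, was itself lower in each HFFC library, at 39588, 57397 and 37776 CPM on chow and 36652, 34814 and 36368 CPM on HFFC. The gap was small beside the chow spread and the log2 fold change was −0.32 ± 0.23. miR-22-5p, with 10 counts in chow replicate 3, was at 0.28 ± 0.52.

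The other miRNAs whose groups were apart had low or moderate levels. On the higher side were miR-140-3p (109, 129.7 and 124 CPM on chow; 209, 175 and 219 CPM on HFFC; 0.73 ± 0.54), a miRNA of cartilage and mesenchyme, and miR-339-5p (0.64 ± 0.68). On the lower side were miR-96-5p (262, 197 and 221 CPM against 110.2, 53.7 and 185 CPM; −0.97 ± 0.51), miR-10b-5p from the Hox cluster (1 to 20 counts; −1.56 ± 0.86), miR-671-5p (−0.86 ± 0.81), miR-467a-5p (−0.59 ± 0.58) and miR-338-3p (−0.48 ± 0.58). The predicted entry miR220-5p was at 14746, 4993 and 16623 CPM on chow and 5728, 1405 and 5321 CPM on HFFC (edgeR unadjusted p = 0.092), where HFFC replicates 1 and 3 lay just above chow replicate 2.

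**Figure D5:**
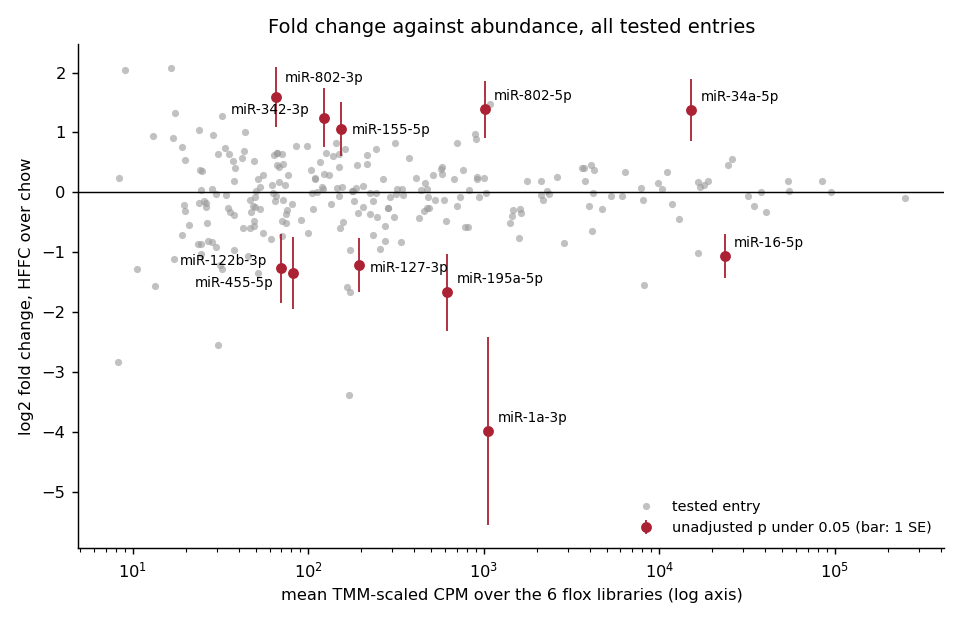
Log2 fold change against mean CPM (log axis) for the 248 tested entries, with the 11 at an unadjusted p under 0.05 in red and bars of 1 SE. The spread narrows to the right, and miR-34a-5p and miR-16-5p are the 2 of the 50 most abundant entries with an unadjusted p under 0.05.

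How small a difference could be seen depended on abundance. For the 50 most abundant miRNAs the median SE of the log2 fold change was 0.32 and the median absolute log2 fold change 0.19. Ranks 51 to 124 had 0.49 and 0.31, and ranks 125 to 248 had 0.71 and 0.51, so in each tier the typical difference was below its SE. The biological coefficient of variation was 55.0%. Abundant miRNAs such as let-7f-5p, miR-126a-3p, miR-26a-5p and miR-192-5p are therefore bounded most tightly, and rare ones hardly at all.

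Among the flox libraries, some entries had counts in all 3 of 1 diet and in none of the other, each at low counts. Only on HFFC were miR-210-3p, the miRNA induced by hypoxia (1, 4 and 6 counts), miR-1983 (3, 6 and 3), miR-874-3p (2, 2 and 6), miR-376b-3p (3, 1 and 4), miR-1839-3p, miR-1249-3p and the predicted miR28-5p (10, 3 and 4). On the chow side were miR-128-3p, a miRNA of neurons and leukocytes (9, 11 and 3 counts), and miR-744-3p (10, 8 and 3). The others were miR-126b-5p (4, 6 and 1), miR-297c-5p and the predicted miR341-3p and miR106-3p. In the HFFC-fed knockouts miR-128-3p had 3, 7 and 4 counts and miR-744-3p 3, 3 and 0. Of the HFFC side, the knockouts had 0, 2 and 2 counts of miR-210-3p, 2, 1 and 13 of miR-1983 and 0, 3 and 0 of miR-874-3p. They had 1, 0 and 0 of miR-376b-3p and 0, 1 and 0 of the predicted miR28-5p. These mice differ in genotype, so their counts do not settle what is absent in flox mice. With no count seen, as many as 3 counts are still possible in a library, equal to 4.05 to 17.0 CPM, and this limit covers counting error only. Apart from the predicted miR28-5p, miR-128-3p and miR-744-3p, none of these entries reached 7 counts in a flox library.

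The study also followed single miRNAs that it had chosen on these same samples, so their direction is not independent evidence. miR-28a-5p, from an intron of Lpp on chromosome 16, had 25, 60 and 5 counts on chow and 23, 53 and 21 on HFFC (0.46 ± 0.52; −0.68 to 1.60), and its 3p arm was at 0.62 ± 0.46. miR-500-3p had 4, 0 and 4 counts on chow and 1, 6 and 18 on HFFC, and miR-3473a had 0, 0 and 7 against 6, 4 and 7. Both were below the filter on low counts and were not tested. A predicted entry named miR489-3p had 12, 11 and 127 counts on chow and 66, 11 and 127 on HFFC. The predicted entry named miR28-5p had 0, 0 and 0 counts on chow, 10, 3 and 4 on HFFC and 0, 1 and 0 in the HFFC-fed knockouts. In the knockouts miR-28a-5p had 39, 33 and 25. The tie of either predicted entry to a miRBase miRNA, or to those the study followed, was not checked.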

How the data were processed

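Small RNA of liver exosomes was sequenced in 9 libraries, 3 for each of 3 groups, grouped by the labels. The study counts 3 mice per group. The study's methods name exosomal RNA and an NEBNext kit, whereas the labels describe tissue RNA and adapters with molecular identifiers, and which applies was not given in the sources used here, nor whether identifiers were collapsed. The submitters' processing notes name Bowtie2, and known miRNAs were matched to miRBase. Not given in the sources used here are the counting tool, the predictor and the genome build.

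The authors deposited whole-number counts per mature miRNA for 722 entries (591 miRBase-named, 131 predicted). RPM values, scaled by the authors to all library tags, and group means stand beside them and were used for no test. 0 columns of sample values were left unmapped.

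Counts were tested with edgeR 4.0.16 in R 4.3.3 (TMM scaling, low counts removed by filterByExpr at its minimum of 10, robust quasi-likelihood test without covariates on all 9 libraries), with Benjamini-Hochberg adjustment over 248 entries and a threshold of 0.05. The SE is the absolute log2 fold change divided by the root of F, and 95% intervals use the t quantile of the fit. Alternatives used DESeq2 1.42.0, limma-voom 3.58.1, other scaling and filters, the 6 flox libraries alone, a replicate block, single libraries left out and pooled counts under Poisson sampling. The study's own tool, DEGseq, pools the libraries of a group.

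Named miRNAs were those past the threshold, or else the 20 of lowest unadjusted p, the 10 most abundant and the study's miRNAs. Of each list, and of each seed family with at least 3 tested members, up to 3 of the most abundant tested members were added. So were up to 10 entries per direction counted in all flox libraries of 1 diet and in none of the other. Others, such as members of neighbouring hairpins, arms of 1 hairpin and miRNAs whose groups were apart, were named after their values were seen. The lists and members were chosen with earlier results of these data known. Sequences are from RefSeq (GRCm38.p6; 498 of the 591 named miRNAs matched) and host genes from GENCODE M21 (GRCm38), which can differ from the annotation the authors used. Reads from copies with like mature sequences cannot be assigned with certainty.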

Additional observations from a re-analysis of the deposited data

How the results depend on the processing

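The count of called miRNAs was 0 under each alternative but 1: with libraries pooled and tested under Poisson sampling, which ignores the spread between mice, 140 of 248 were called. In the other alternatives the lowest adjusted p ran from 0.147 (no filter on low counts) to 1 (DESeq2 and without HFFC replicate 2), and 6 to 33 miRNAs had an unadjusted p under 0.05. The labels do not say whether replicate numbers pair the mice. Deviations of same-numbered flox libraries correlated at 0.07, 0.36 and 0.24, and those of differently numbered ones at −0.49 to 0.27. With 3 libraries a group, these values cannot decide the question. With a replicate block there were 0 calls, 10 miRNAs at an unadjusted p under 0.05 and a lowest adjusted p of 0.592. With single libraries left out, the log2 fold change ran from −4.75 to 0.72 for miR-1a-3p and from −4.32 to 1.90 for miR-206-3p, turning positive without chow replicate 3, and limma-voom gave 0.31 for miR-206-3p. The cause was not tested. Of 93 named miRNAs tested, 49 kept their sign in all alternatives, and 0 passed the threshold in the fits that keep the libraries apart. Among 34 lists, 16 of 543 alternative medians moved by more than 1 SD of the list's replicate libraries, and 60 had another sign. Upper-quartile scaling shifted the median over all tested miRNAs from −0.02 to −0.14. Summing identical mature sequences, chosen after seeing the data, left 246 entries with 0 calls and 12 at an unadjusted p under 0.05. The number of miRNA counts, low beside a like number of tags, limits chow replicate 3 and HFFC replicate 1 most.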
